A study of Mus musculus with 34 samples.

Results

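The Foxp3 locus is described here through every deposited binding peak of BATF, Foxp3 and IRF4 in mouse CD4 T cells whose nearest protein-coding gene body, within 100 kb, is Foxp3. The rule for a peak used position only, but the locus was chosen with earlier results of these data known. Of 41612 peaks in 4 tables, 5 belong to Foxp3. There was 1 of 16109 peaks in the first BATF table, 1 of 9973 in a second BATF table, 2 of 6396 Foxp3 peaks and 1 of 9134 IRF4 peaks.

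Foxp3 encodes the forkhead transcription factor that defines regulatory T (Treg) cells, the CD4 T cells that restrain immune responses. Its transcription depends on the promoter and on conserved noncoding sequences (CNS), among them the intronic element CNS2, which is demethylated in Treg cells and keeps Foxp3 expression stable, and an element upstream of the promoter called CNS0. Foxp3 protein binds its own gene. BATF is a basic leucine zipper factor of the AP-1 family that pairs with JUN proteins. Its partner IRF4, of the interferon regulatory factors, joins BATF-JUN pairs on composite DNA elements.

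All cells came from C57BL6/J mice (lymph nodes and spleen) whose Foxp3 allele carries an IRES-hCD2 reporter, so that surface human CD2 marks cells that express Foxp3. R397W Treg cells (CD4+hCD2+GFP-) had a Foxp3R397W-IRES-hCD2 allele beside a Foxp3-IRES-GFP allele, where R397W is a substitution in the forkhead domain known from patients with the immune disease IPEX. Their control Treg cells, sorted the same way, had Foxp3WT-IRES-hCD2 beside Foxp3-IRES-GFP. BATF was measured in these 2 groups with 2 libraries each, and in Treg (CD4+hCD2+) and conventional T (Tconv, CD4+hCD2-) cells of Foxp3-IRES-hCD2 mice with 2 libraries each. For IRF4 there were 4 libraries of Treg and 4 of Tconv cells, both of that genotype. Foxp3 was measured, with 2 libraries each, in Batf-/- Treg cells, in wild-type Treg cells, in effector Treg cells sorted as CCR7loCD62Llo, and in central Treg cells sorted as CCR7hiCD62LhiCD44lo. The labels give no age or sex and do not say whether animals were pooled. Foxp3 lies on the X chromosome, and a sample with 2 Foxp3 alleles carries the sorted one on 1 of its X chromosomes.

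A value below is the authors' normalised score of a peak in a library, which equals the reads in the peak times 1 scale factor for that library. Reads in peaks per library ranged from 1377509 to 2280493 in the first BATF table, 144319 to 1009580 in the second, 164740 to 393310 for Foxp3 and 162580 to 336969 for IRF4. The Treg and Tconv libraries of both BATF tables are the same libraries, scaled separately, so they count once. A log2 difference is of value plus 1, a called peak has an adjusted p under 0.05 from limma over all peaks of its table, and an error is the SD over libraries. Nothing in the labels says that libraries came from separate animals, so p-values measure the spread between libraries only. Chromatin from fewer bound cells and less binding per cell cannot be told apart.

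All 3 factors shared 1 site within the gene. The gene body of Foxp3 covers chrX 7579676 to 7595243 (GRCm38.p6, the assembly of the authors' mm10), on the forward strand. The Foxp3 peak within it lay at chrX 7583928 to 7584328, with its centre 4452 bp after the gene's start. IRF4 had its peak at 7583922 to 7584322, and BATF had its peaks at 7583901 to 7584301 and, in the second table, at 7583904 to 7584304. The BATF centre was thus 27 bp and the IRF4 centre 6 bp from the Foxp3 centre, on the side of the promoter. Among the 2143 Foxp3 peaks that overlapped both a BATF and an IRF4 peak (33.5% of 6396), the median distance was 26 bp for either factor. The position is where CNS2 is described in the mouse gene, although no file used here annotates that element or the exons.

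Foxp3 had a second peak at the promoter, at 7579306 to 7579706, with its centre 170 bp before the gene's start. It overlapped no BATF and no IRF4 peak, as did 2916 of 6396 Foxp3 peaks (45.6%). The peak also lay within the gene body of Flicr, a long noncoding RNA gene annotated at 7573600 to 7581016. The nearest peaks left out were those of BATF at 7574333 to 7574733 and, in the second table, 7574307 to 7574707, with centres 5143 and 5169 bp before Foxp3, since their nearest gene was Ppp1r3f at 52 and 26 bp. Ppp1r3f, which encodes a regulatory subunit of protein phosphatase 1, is the next gene upstream. A site within Ppp1r3f was again shared by all 3 factors. Its Foxp3 peak at 7570783 to 7571183 had its centre 8693 bp before the Foxp3 start, with the BATF centre 50 bp and the IRF4 centre 63 bp farther upstream. This is the region in which CNS0 is described.

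**Figure D1:**
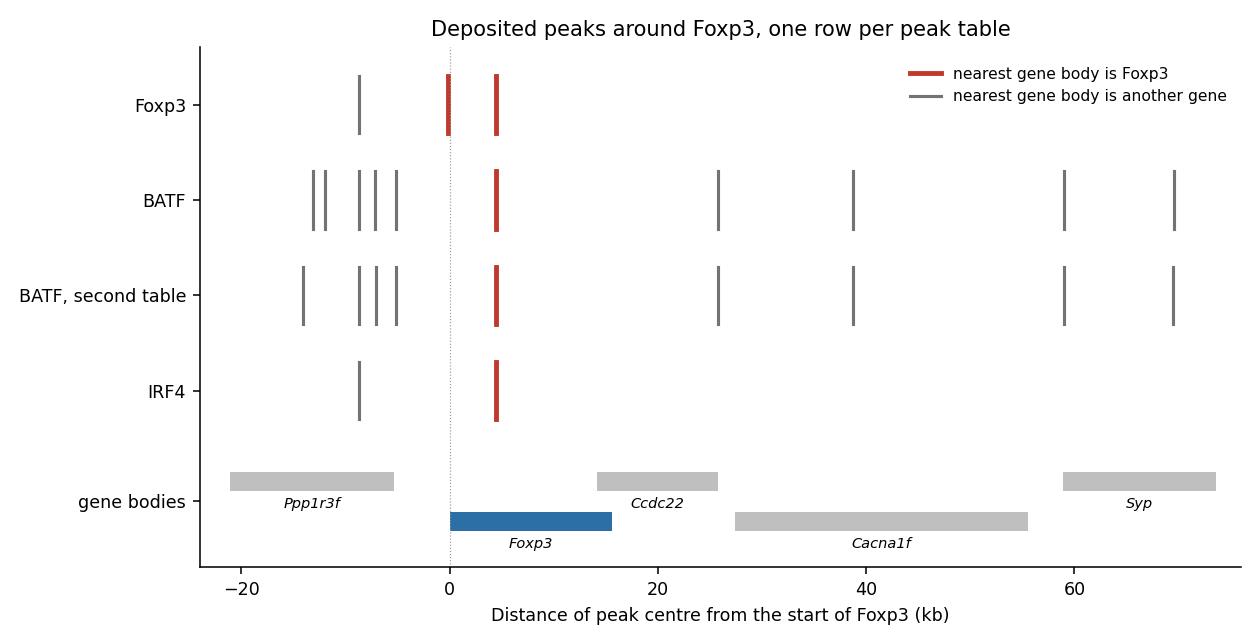
Positions of the deposited peaks around Foxp3, one row per table and one mark per peak, on an axis of distance in kb of the peak centre from the start of Foxp3, with gene bodies as bars at the bottom. Marks in all 4 rows coincide at the site within Foxp3 and at the upstream site within Ppp1r3f, while the promoter mark is present in the Foxp3 row only.

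The sequence under the promoter peak is shown because Foxp3 protein bound there and the letters of its own motif can be looked for. The RefSeq promoter window of Foxp3 (GRCm38.p6, chrX:7579426-7579725, forward strand) holds 281 bases of the peak, if peak positions count from 1. Capitals mark the forkhead core TGTTT on either strand.
Foxp3 promoter: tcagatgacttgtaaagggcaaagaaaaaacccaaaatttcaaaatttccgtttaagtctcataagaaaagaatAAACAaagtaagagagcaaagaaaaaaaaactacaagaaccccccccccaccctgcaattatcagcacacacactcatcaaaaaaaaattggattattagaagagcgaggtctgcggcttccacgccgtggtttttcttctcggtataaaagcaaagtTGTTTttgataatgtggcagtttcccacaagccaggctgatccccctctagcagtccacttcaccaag
The core TGTTT matched at 7579500 to 7579504 on the reverse strand and at 7579658 to 7579662 on the forward strand, and 50.5% of 32851 mouse promoter windows of this length hold at least 1 match on either strand. A TATAAA was found at 7579644 to 7579649 (13.6% of windows) and a GGAAG, the Ets core, at 7579617 to 7579621 (71.4%). The longer forkhead forms TGTTTAC (3.65% of windows) and TTTGTTTG (2.61%), the AP-1 form TGANTCA (7.81%), the IRF form of GAAA repeated after a gap of 2 bases (3.44%), the Runx form TGTGGT (16.8%) and the STAT form TTCNNNGAA (8.30%) had no match on either strand in this window. On the reverse strand the core at 7579500 to 7579504 reads on as TGTTTAT, which differs from TGTTTAC in the last base only. That form was not among those searched, and its share of windows was not counted. Its GC content was 40.7%, against a median of 52.7% over all windows. The site within the gene lies outside the sequences used here.

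BATF was bound at the site within Foxp3 in Treg cells and nearly absent there in Tconv cells. The peak had values of 115 and 108 in Treg cells (111 and 96 reads) and of 3.48 and 0 in Tconv cells (3 reads and none). The means were 112 ± 4.70 in Treg cells and 1.74 ± 2.46 in Tconv cells (SD, n = 2 each). The lower Treg library was far above the higher Tconv library, so the groups did not overlap. The log2 difference was 5.73 (SE 0.70, 95% interval 4.25 to 7.21; limma adjusted p = 1.82e-05), and the peak was called higher, as were 14.9% of the 16109 BATF peaks, while 4.79% were called lower. Scaled reads pooled over libraries gave a ratio of 84.3, with an exact 95% interval of 28.5 to 412 that covers counting error only. Without the Tconv library that had 3 reads the log2 difference was 6.82, and without the one that had none it was 4.65. The size of the difference thus rests on very few reads. With so few reads, the peak cannot have been listed through Tconv cells, so the direction was fixed by the listing. The p-value is therefore no separate evidence of direction.

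The level of BATF in Treg cells was above the middle of either BATF table. The mean of 112 in Treg cells compares with a median of 87.6 over all peaks of the first table, where 34.7% of peaks were at least as high. Among the peaks of the second table, 18.8% were higher in the same Treg libraries and 7.19% in control Treg cells. In Tconv cells the median over all peaks was 79.6, and only 57 peaks (0.354%), the one within Foxp3 included, had as few as 3 reads over both libraries. Other peaks came close to both values. Among them were a peak at chr13 110563990 with no gene within 100 kb (111 in Treg and 0.581 in Tconv cells) and a peak of Dnase1l3 (102 in Treg and 1.16 in Tconv cells). Peaks of Emsy (220 in Treg and 2.01 in Tconv cells) and Dusp4 (171 in Treg and 2.90 in Tconv cells) were higher in Treg cells. These were named after their values were seen. By log2 difference 8 of 16109 peaks lay above the one within Foxp3, between 2 and 62 when 1 library at a time was left out.

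IRF4 showed the same contrast at the same site. Its peak had values of 99.5, 80.9, 86.5 and 86.9 in Treg cells, against 2.42, 0, 0 and 2.29 in Tconv cells, where 5 reads were counted in all. Every Treg library was far above every Tconv library. The means were 88.5 ± 7.88 in Treg cells and 1.18 ± 1.36 in Tconv cells (SD, n = 4 each), and the log2 difference was 5.61 (SE 0.47, 95% interval 4.64 to 6.57; limma adjusted p = 3.58e-08). The peak was called higher, as were 15.8% of the 9134 IRF4 peaks, while 8.39% were called lower. The ratio of scaled reads was 83.3 (exact 95% interval 35.3 to 258, counting error only). Here too the peak can have been listed through Treg libraries only. Its direction was thus fixed in advance, and the p-value is no separate evidence of it.

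This was the largest log2 difference of any IRF4 peak, in the fit as reported and in each of the 14 alternatives run. The next was a peak 28408 bp from Il1r2, which encodes the decoy receptor for interleukin-1, at 4.40, with means of 72.1 in Treg cells and 2.68 in Tconv cells. IRF4 was also high in level at the site within Foxp3. The mean of 88.5 in Treg cells compares with a median of 20.8 over all IRF4 peaks, and 2.43% of peaks were at least as high. Only 28 IRF4 peaks (0.307%), again counting the one within Foxp3, had as few as 5 reads over the 4 Tconv libraries.

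**Figure D2:**
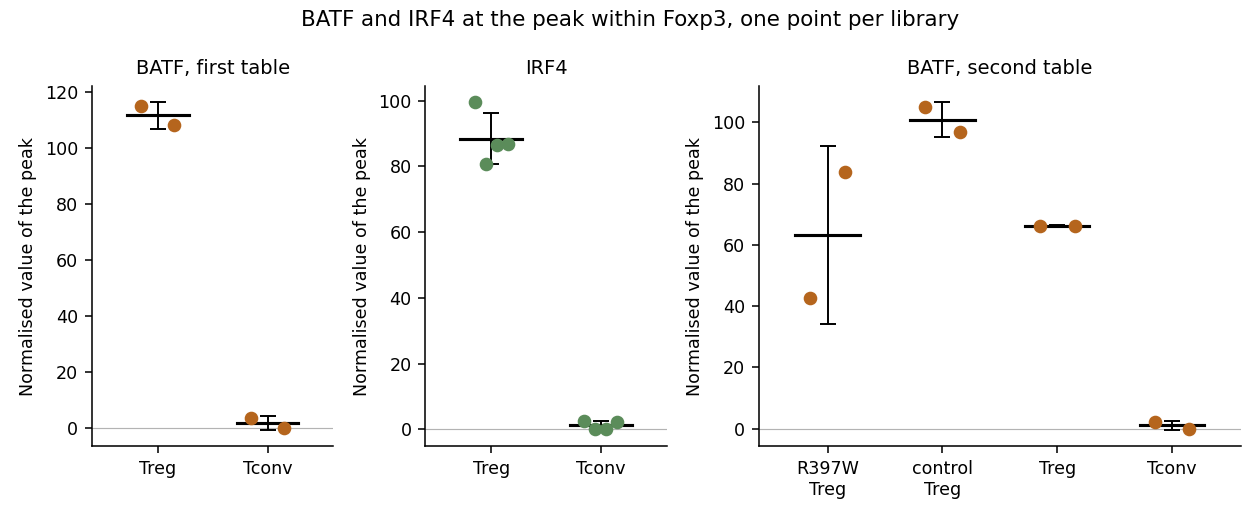
Normalised value of the BATF and IRF4 peaks within Foxp3, 1 point per library, with the mean as a line and the SD as an error bar, by group on the horizontal axis. Tconv libraries lie between 0 and 3.48 in every panel, below every Treg library, and the R397W libraries at 42.7 and 83.9 lie below the control libraries at 105 and 96.8.

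In Treg cells with the R397W form of Foxp3, BATF was still at the site, at a lower mean than in control Treg cells. The values in the second BATF table were 42.7 and 83.9 in R397W Treg cells (25 and 121 reads), against 105 and 96.8 in control Treg cells (68 and 28 reads). Both R397W libraries were below both control libraries, but the R397W libraries lay far apart. The means were 63.3 ± 29.1 in R397W cells and 101 ± 5.69 in control cells (SD, n = 2 each). The log2 difference of -0.74 (SE 0.32, 95% interval -1.42 to -0.06) did not pass over all peaks (limma adjusted p = 0.177). Of the 9973 peaks 8.04% were called lower and 0.612% higher. Pooled scaled reads gave a ratio of 0.703 (exact 95% interval 0.540 to 0.919, counting error only). Leaving out the R397W library at 42.7 moved the log2 difference to -0.26, and leaving out the one at 83.9 moved it to -1.22.

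Both groups stood far above Tconv cells in the same table, although they come from another experiment than the Tconv libraries, so that experiment and group cannot be told apart. The same peak had 66.1 and 66.3 in Treg cells and 2.11 and 0 in Tconv cells there. Against Tconv cells, the log2 difference was 5.11 for R397W Treg cells (SE 0.49; limma adjusted p = 4.10e-06), with 12.1% of all peaks called higher and 0.953% lower. It was 5.85 for control Treg cells (SE 0.49; limma adjusted p = 6.41e-08), with 23.8% of peaks called higher and 10.2% lower. These 2 comparisons share the Tconv libraries, through which the peak cannot have been listed here either. With 1 library at a time left out, it ranged from 4.29 to 5.93 in R397W cells (highest without the Tconv library that had 3 reads, lowest without the one that had none) and from 5.03 to 6.67 in control cells, with the same 2 libraries at the ends. By this difference 1 of 9973 peaks lay above the Foxp3 site in R397W cells and 7 lay above it in control cells, within ranges of 0 to 12 and 2 to 60 peaks over the alternatives. The single peak above it, at chr13 44469661 to 44470061 with no gene within 100 kb, is named after its values were seen.

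Foxp3 protein was bound at the site within its own gene in all 4 groups, and the values fell into an upper range for wild-type Treg cells and lower ranges for the others. Batf-/- Treg cells had 82.3 and 117 at the site (81 and 91 reads), and wild-type Treg cells had 142 and 144. Both Batf-/- libraries were below both wild-type libraries. The means were 99.7 ± 24.6 in Batf-/- and 143 ± 1.50 in wild-type Treg cells (SD, n = 2 each). The log2 difference of -0.53 (SE 0.28, 95% interval -1.10 to 0.03) was not called (limma adjusted p = 0.331). Of the 6396 Foxp3 peaks 3.91% were called lower and 0.547% higher. The ratio of pooled scaled reads was 0.684 (exact 95% interval 0.565 to 0.827, counting error only).

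Binding at the promoter went the other way in direction, also without a call. It had values of 40.6 and 55.3 in Batf-/- Treg cells and 43.5 and 33.4 in wild-type Treg cells, and these overlap. The log2 difference was 0.31 (SE 0.34, 95% interval -0.40 to 1.01; limma adjusted p = 0.714). The upstream site within Ppp1r3f had 131 and 133 in Batf-/- Treg cells, inside the range of 110 and 190 in wild-type Treg cells, with a log2 difference of -0.13 (limma adjusted p = 0.873). X-linked Foxp3 peaks as a whole (159) had a median log2 difference of 0.10 in this comparison, against 0.05 for the other peaks.

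The ratio of the site within the gene to the promoter, taken inside a library, does not depend on its scale factor. It was 2.02 and 2.12 in Batf-/- Treg cells, against 3.26 and 4.30 in wild-type, 3.80 and 4.25 in effector and 3.69 and 3.18 in central Treg cells. Both Batf-/- libraries were below the other 6. Pooled reads gave 2.07 in Batf-/- Treg cells (172 over 83 reads, exact 95% interval 1.59 to 2.73) and 3.76 in wild-type Treg cells (312 over 83 reads, 2.94 to 4.85). They gave 4.15 in effector (191 over 46 reads, 3.00 to 5.86) and 3.32 in central Treg cells (156 over 47 reads, 2.38 to 4.70). The interval in central Treg cells overlaps that in Batf-/- Treg cells. This ratio was singled out after its values were seen, and 2 libraries against 2 cannot give a two-sided exact permutation p below 0.333, which is what it gave.

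Effector and central Treg cells did not differ in a call at any of these sites. Within the gene, Foxp3 had 48.1 and 88.2 in effector and 63.9 and 80.1 in central Treg cells, so the effector libraries bracket the central ones. The log2 difference was -0.13 (SE 0.28, 95% interval -0.70 to 0.44; limma adjusted p = 0.788), in a comparison where 15% of peaks were called higher and 10.8% lower. It was 0.30 without the effector library at 48.1 and 0.03 without the central library at 80.1. At the promoter the values were 12.7 and 20.8 in effector and 17.3 and 25.2 in central Treg cells, with a log2 difference of -0.34 (SE 0.34, 95% interval -1.05 to 0.36; limma adjusted p = 0.526). The upstream site had 51.9 and 49.0 in effector and 54.6 and 102 in central Treg cells, with a log2 difference of -0.55 (limma adjusted p = 0.171). Without the central library at 54.6 it was called lower, at -0.99 (limma adjusted p = 0.0285), within a range of 0.0285 to 0.858 over its alternatives.

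All 3 sites were lower in both sorted subsets than in wild-type Treg cells taken as a whole, a comparison given as a description because it was not among those planned. It shares the wild-type libraries with the comparison with Batf-/- cells. Within the gene the log2 difference from wild-type Treg cells was -1.12 for effector and -0.99 for central Treg cells, at the promoter -1.18 and -0.84, and upstream -1.50 and -0.95. The median over all peaks was 0.05 for effector and 0.06 for central Treg cells, and 13.3% of peaks for effector and 21.2% for central Treg cells lay below the site within the gene. X-linked peaks as a whole had medians on the other side of 0, of 0.39 for effector and 0.48 for central Treg cells. The peaks of the other chromosomes had medians of 0.04 for effector and 0.05 for central Treg cells. Whether sorting, cell number or library preparation plays a part was not tested.

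**Figure D3:**
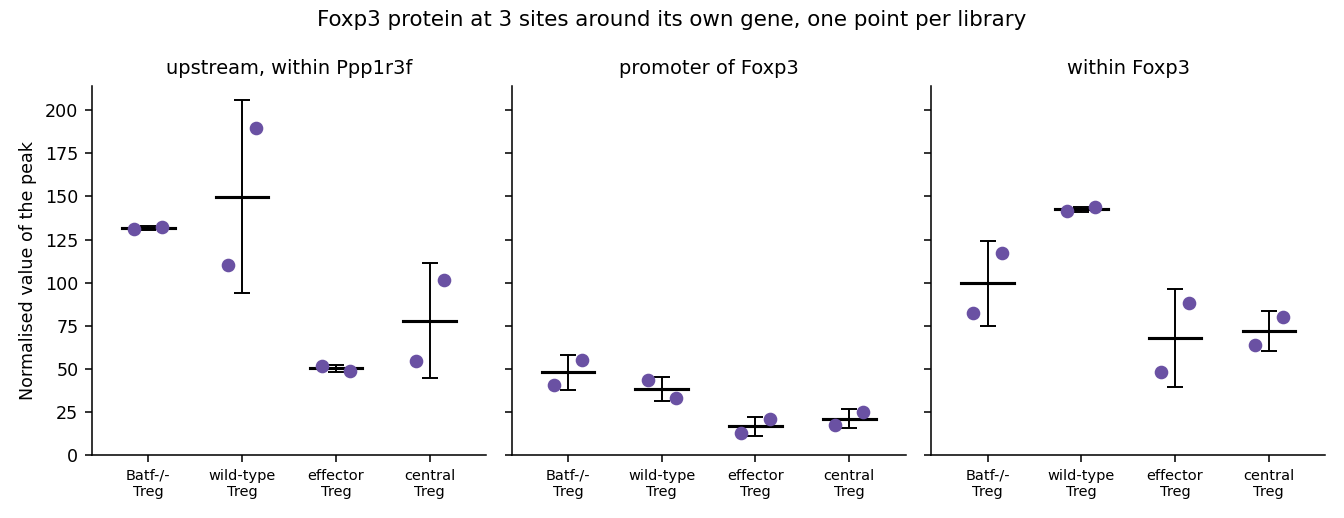
Normalised value of Foxp3 at the upstream site, the promoter and the site within the gene, 1 point per library, with the mean as a line and the SD as an error bar, by group on the horizontal axis. Wild-type libraries reach 142 and 144 within the gene, above all 6 other libraries, and effector and central libraries lie lowest at the promoter, between 12.7 and 25.2.

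Among Foxp3's own peaks the site within the gene ranked 251st of 6396 by mean value and the promoter 3112th. In wild-type Treg cells 2.60% of peaks were higher than the site within the gene, and in Batf-/- Treg cells 6.52% were. The share was 6.89% in effector and 6.33% in central Treg cells. The promoter peak was above the median of the table in Batf-/- and wild-type Treg cells, where 27.2% and 38.4% of peaks were higher, and below it in effector and central Treg cells, where 87.6% and 72.6% were. The upstream site ranked 202nd by mean value.

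**Figure D4:**
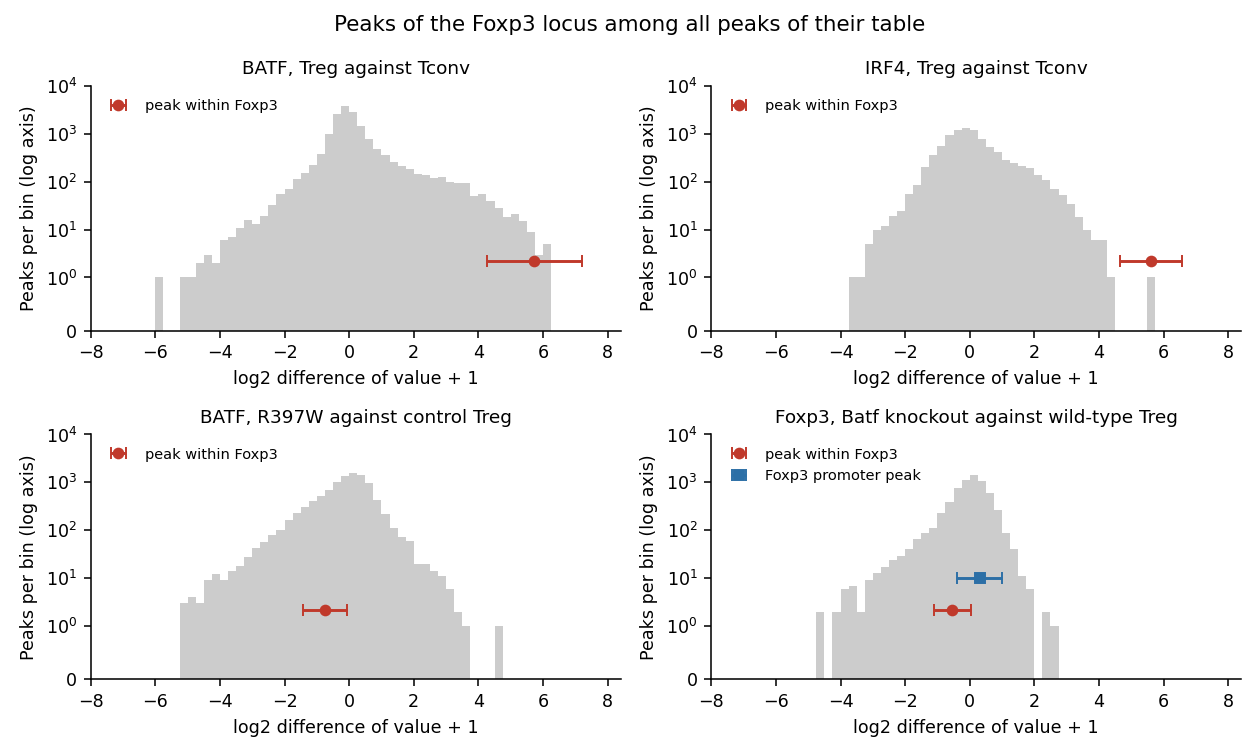
Number of peaks per bin of log2 difference (log axis) for 4 comparisons, with the peaks of the Foxp3 locus as points and their 95% intervals as bars, placed at arbitrary heights. The peak within Foxp3 stands at 5.73 for BATF, at the end of the range, and at 5.61 for IRF4, alone beyond 4.40, but at -0.74 for R397W and -0.53 for the Batf knockout, inside the bulk of their peaks.

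The peaks with a profile most like that of the site within Foxp3 were found by Euclidean distance of log2 values over the 8 libraries of a table. In the second BATF table the nearest were a peak 50998 bp from Dusp4, which encodes a MAP kinase phosphatase (distance 1.25), and peaks within Runx2, a Runt family transcription factor gene (1.42), and Itpr1, the gene of an inositol trisphosphate receptor (1.84). The median over all peaks was 7.31. For IRF4 the nearest were the peak by Il1r2 (3.16) and one 21589 bp from Ctla4, the gene of an inhibitory receptor of Treg cells (3.48), followed by one 8010 bp from Tex13d (3.50), with a median of 8.80. For Foxp3, peaks within Hivep2 (0.67), Cobll1 (0.76) and Ppp3ca, the gene of a calcineurin catalytic subunit (0.81), were nearest, with a median of 5.16.

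The sites around Foxp3 that belong to neighbouring genes did not share the near absence of BATF in Tconv cells. Of 9 BATF peaks assigned to Ppp1r3f, Ccdc22, Cacna1f and Syp, 5 were called higher in Treg cells and none lower. Of all BATF peaks in this comparison 14.9% were called higher and 4.79% lower. The 2 largest differences were within Ppp1r3f and farthest upstream. At 7566309 to 7566709 BATF averaged 71.7 ± 10.5 in Treg cells and 10.2 ± 0.322 in Tconv cells (log2 difference 2.69, limma adjusted p = 0.000224). At 7567543 to 7567943 it averaged 70.4 ± 21.8 in Treg cells and 21.5 ± 0.870 in Tconv cells (log2 difference 1.63, limma adjusted p = 0.00447), a call that ended without Treg library 2 (limma adjusted p = 0.111).

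At the upstream site shared by all 3 factors, BATF was present in both cell types. It had values of 104 and 133 in Treg cells and 53.4 and 77.1 in Tconv cells, which do not overlap (log2 difference 0.86, limma adjusted p = 0.0270). IRF4 averaged 35.9 ± 5.01 in Treg cells and 19.4 ± 10.5 in Tconv cells there, and 1 Tconv library at 34.3 lay inside the Treg range of 29.5 to 40.1 (log2 difference 0.97, limma adjusted p = 0.0321). The peaks at 7572345 (81.9 ± 8.78 in Treg and 42.2 ± 1.10 in Tconv cells; limma adjusted p = 0.0319) and at 7638480 near Syp, the synaptophysin gene (83.2 ± 20.2 in Treg and 43.5 ± 4.08 in Tconv cells; limma adjusted p = 0.0459), were called too. Several of these calls depended on 1 library or on the settings. The call at 7570733 ended without Treg library 2 (limma adjusted p = 0.218) or Tconv library 1 (0.180), and the call at 7572345 ended without any 1 of the 4 libraries (limma adjusted p = 0.0572 to 0.191). The call at 7638480 ended without Treg library 1 or either Tconv library (limma adjusted p = 0.0528 to 0.304), and for IRF4 the call ended when any 1 of 5 libraries was left out, namely Treg 2, 3 and 4 and Tconv 1 and 2 (limma adjusted p = 0.0644 to 0.113). Without a trend, the calls at 7570733 (limma adjusted p = 0.0902), 7638480 (0.0629) and for IRF4 (0.0680) ended. Quantile normalisation ended those at 7570733 (0.0547), 7572345 (0.0870) and 7638480 (0.116), and the filter at the 25th percentile those at 7572345 (0.0513) and 7638480 (0.0671).

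The other 4 BATF peaks gave no call. They averaged 48.7 in Treg and 39.3 in Tconv cells at 7574333, 37.0 in Treg and 67.1 in Tconv cells near Ccdc22, 37.1 in Treg and 39.7 in Tconv cells near Cacna1f, a calcium channel gene, and 28.2 in Treg and 41.0 in Tconv cells at the second Syp peak. In the R397W experiment the upstream shared site had 116 and 50.6 in R397W Treg cells and 66.3 and 45.0 in control Treg cells. The other 7 neighbouring peaks of that table averaged 32.4 to 53.2 in R397W and 21.6 to 53.5 in control Treg cells. Their means were higher in R397W cells at all but the peak at 7572355 (53.2 in R397W and 53.5 in control cells). The libraries of the groups overlapped at every neighbouring peak but those at 7574307 and near Ccdc22. The mean at the site within Foxp3 went the other way (63.3 in R397W and 101 in control cells), without a call. X-linked BATF peaks as a whole (349) had a median log2 difference of 0.11 in this comparison, against -0.02 for the other peaks. No test of these neighbours is given for this comparison, and control library 2 had only 4 reads near Ccdc22.

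Genes known to act on Foxp3 transcription were read beside the locus, as a list of 36 genes for upstream receptors, transcription factors and DNA methylation enzymes. The list was chosen with earlier results of these data known. For BATF in Treg against Tconv cells, 51 of its 179 peaks were called higher (28.5%, against 14.9% of all peaks) and 10 lower (5.59% against 4.79%), with a median log2 difference of 0.25 against -0.03 over all peaks. Called peaks within Il2rb, a chain of the interleukin-2 receptor, Smad3, a mediator of TGF-beta signalling, and Ets1 had the smallest p, with log2 differences of 2.86, 2.33 and 2.67. IRF4 had 18 higher and 11 lower of 115 peaks, which is 15.7% and 9.57% against 15.8% and 8.39% of all IRF4 peaks, with a median of 0.11 against -0.05 over all peaks. For Foxp3 in Batf-/- against wild-type Treg cells, none of 76 peaks was higher and 2 (2.63%, against 3.91% of all peaks) were lower by limma, at Bach2 (12.0 ± 1.19 in Batf-/- and 80.4 ± 12.1 in wild-type Treg cells) and Ets1 (6.67 ± 5.12 in Batf-/- and 56.3 ± 14.7 in wild-type Treg cells). The median of the list was 0.06, against 0.05 over all peaks. In effector against central Treg cells 6 of the 76 were higher (7.89%, against 15% of all peaks) and 23 lower (30.3% against 10.8%), with a median of -0.30 against -0.01. The smallest p belonged to 2 peaks assigned to Satb1 and 1 near Tgfbr2 (log2 difference -2.95). Satb1 encodes a chromatin organiser that acts on Foxp3 in developing Treg cells. Of its 2 peaks, 1 lay within the gene (-3.80) and 1 lay 73102 bp away (-3.17). For BATF in R397W against control Treg cells, 1 of 88 was higher (1.14%, against 0.612% of all peaks) and 8 lower (9.09% against 8.04%), with a median of -0.07 against -0.02.

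A list of 15 genes characteristic of Treg cells, also chosen with earlier results known, gave a second setting for the locus, without Foxp3 itself. BATF was called higher in Treg than in Tconv cells at 40 of its 52 peaks (76.9%, against 14.9% of all peaks) and lower at 1, with a median log2 difference of 2.14. IRF4 was higher at 15 of 30 peaks (50%, against 15.8%) and lower at none, with a median of 0.84. In Batf-/- against wild-type Treg cells 3 of 46 Foxp3 peaks were lower (6.52%, against 3.91%) and none higher, namely 2 near Nrp1, the neuropilin-1 gene, and 1 within Ikzf2, the gene of Helios. The stronger Nrp1 peak averaged 7.55 ± 2.06 in Batf-/- and 118 ± 21.6 in wild-type Treg cells, a log2 difference of -3.81, where the site within Foxp3 had -0.53. In effector against central Treg cells 15 of 46 were higher (32.6%, against 15%) and 3 lower (6.52% against 10.8%), with a median of 0.26. In R397W against control Treg cells 7 of 22 BATF peaks were lower (31.8%, against 8.04%) and none higher, with a median of -1.17, and the peak near Nrp1 averaged 81.0 ± 18.5 in R397W and 317 ± 45.2 in control Treg cells, a log2 difference of -1.97, where the site within Foxp3 had -0.74. In limma fits against Tconv cells, 12 of the 22 were higher and none lower in R397W Treg cells (54.5% higher, against 12.1% of all peaks). In control Treg cells 17 were higher and 1 lower (77.3% higher, against 23.8%), with the Tconv libraries shared.

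Markers of other cells that a CD4 sort could hold had few peaks, and binding at a gene does not measure its RNA. For BATF in Treg against Tconv cells, 1 of 3 peaks at B cell genes, 2 of 5 at myeloid genes and 1 of 11 at CD8 T and NK cell genes were called higher, and 2 of the last were lower, where 14.9% of all BATF peaks were higher and 4.79% lower. A peak at a gene is here any peak assigned to it within 100 kb. The 2 myeloid peaks called higher lay 18012 bp from Cebpa and 86817 bp from Cebpb. No BATF peak was assigned to 5 of 7 B cell genes, 6 of 9 myeloid genes and 4 of 8 CD8 T and NK cell genes. The summed values were 178 to 201 in Treg and 107 to 146 in Tconv libraries for B cell genes, 616 to 623 in Treg and 383 to 412 in Tconv libraries for myeloid genes, and 457 to 484 in Treg and 560 to 574 in Tconv libraries for CD8 T and NK cell genes. For IRF4, 1 of 3 peaks at B cell genes was higher, and none of 4 at myeloid genes or of 1 at CD8 T and NK cell genes was called. Of all IRF4 peaks 15.8% were higher and 8.39% lower. Foxp3 had no peak at B cell or myeloid genes and 2 at CD8 T and NK cell genes, 1 of them higher in effector than in central Treg cells. In that comparison 15% of all Foxp3 peaks were higher and 10.8% lower. In R397W against control Treg cells 1 of 3 BATF peaks at myeloid genes was lower, and none of 2 at B cell genes or of 7 at CD8 T and NK cell genes was called. Of all peaks in this comparison 8.04% were lower and 0.612% higher. Against Tconv cells, 2 of those 3 myeloid peaks were higher in control and none in R397W Treg cells, 1 of the 2 B cell peaks was higher in each, and 1 of the 7 CD8 T and NK cell peaks was lower in control Treg cells. The shares over all peaks differ, with 23.8% higher and 10.2% lower in control Treg cells. In R397W Treg cells they were 12.1% higher and 0.953% lower. Their part in the differences at the Foxp3 locus was not tested.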

How the data were processed

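Chromatin immunoprecipitation of BATF (clone D7C5) and Foxp3 (in-house antibody) was per the labels' protocols, which name no antibody for IRF4. Of 34 samples, 24 are immunoprecipitations and 10 input DNA, and the inputs were not used. Normalised peak scores, a unit of signal, were deposited in 4 tables, with 1 peak list for all libraries of a table. The tools named per the submitters' processing notes are DiffBind 3.12.0, edgeR 3.38.4, MACS2 2.2.7.1 and Bowtie2 2.4.1, with build mm10 and no roles given. Filters are not given in the sources used here. Each deposited value was a whole number of reads, within 0.01, times 1 factor per library. Scaling of this kind removes a change common to most peaks, and total depth is unknown. Columns of the R397W controls could be tied to their group only.

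Peaks went to their nearest RefSeq protein-coding gene body (GRCm38.p6) within 100 kb, and coordinates are printed as deposited, since counting from 0 or 1 could not be settled. The test was limma 3.58.1 (R 4.3.3) on log2(value + 1), moderated with a mean-variance trend, two-sided, with Benjamini-Hochberg adjustment over all peaks of a table. All peaks were kept. Foxp3 groups shared 1 fit, as did the comparisons with Tconv cells in the second BATF table. The R397W and control libraries were fitted alone. Read ratios used pooled reads over the summed inverses of the scale factors with exact conditional intervals (scipy), which cover counting error only. The fits were also tested on simulated data, with no outcome given here. The planted changes were smaller than the difference from Tconv cells at the Foxp3 site, so that test does not cover it.

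Same-numbered libraries correlated at -0.02 to 0.14 in their deviations from group means, so numbers were not taken as pairs. Named were all peaks of the locus, its neighbours within 100 kb, up to 3 peaks of each gene list by smallest p, and the 3 most alike peaks of a table. The members and lists were chosen with earlier results of these data known. Alternatives were another pseudocount (5), a filter at the 25th percentile, no trend, quantile normalisation, edgeR 4.0.16 on recovered reads (not run for Foxp3), a replicate block, other sets of libraries, each library left out, and other distance rules.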

Additional observations from a re-analysis of the deposited data

How the results depend on the processing

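Of 95 alternatives for the peaks of the Foxp3 locus over all comparisons, 93 kept the direction and the side of the threshold. The other 2 concern Foxp3 within its gene in effector against central Treg cells, never called, whose log2 difference ranged from -0.56 to 0.30 when 1 library was left out, with 0.30 without effector library 1 and 0.03 without central library 2. Against Tconv cells the direction was fixed by the listing. In all other comparisons no peak of the locus was called, so the side kept there is only that of no call. The pooled count is thus no measure of how firm a difference is. Among neighbouring peaks that were not called, the sign also turned for BATF at 7574333 (-0.062 to 0.61 over libraries left out, lowest without Treg library 1), for BATF near Cacna1f (-0.31 to 0.10, above 0 without Treg library 2 or Tconv library 1) and for Foxp3 at the upstream site in the Batf knockout comparison (-0.52 to 0.26, highest without wild-type library 2). BATF near Ccdc22 became called lower under quantile normalisation (limma adjusted p = 0.0402). With 1 library left in a group, that library is assumed to vary like the others.

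The size of the called differences moved too. Over all alternatives the log2 difference within Foxp3 ranged from 4.16 to 6.82 for BATF, 3.94 to 6.21 for IRF4, 3.45 to 6.19 for R397W and 4.15 to 6.71 for control Treg against Tconv cells, lowest with a pseudocount of 5. Counts of called peaks also moved. A filter at the 25th percentile of mean value gave 1771 called BATF peaks in place of 3167, and 184 in place of 285 for the Batf knockout. Quantile normalisation gave 174 for the knockout, 540 in place of 863 for R397W against control and 647 in place of 1300 for R397W against Tconv cells, and without a trend R397W against control gave 171. Leaving out 1 library gave 108 to 571 for the knockout, 1030 to 1174 in place of 1646 for effector against central cells, 141 to 650 for R397W against control (141 without control library 2) and 845 to 1127 for R397W against Tconv cells. Quantile normalisation also split the BATF calls into 2086 higher and 1291 lower, against 2395 and 772, and those of control Treg against Tconv cells into 1913 higher and 1595 lower, against 2376 and 1017. Its median over all peaks was -0.13 for BATF, -0.11 for IRF4, 0.13 for R397W against control and -0.28 for control Treg against Tconv cells.

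Counting every peak within 10 kb of the gene body, whatever gene is nearer, would give 5 peaks in each BATF table, 3 for Foxp3 and 2 for IRF4, where 1, 2 and 1 were described. The planned edgeR fit was not run for Foxp3. With a replicate block, no call at the locus changed. It gave 3804 called peaks for BATF, 2425 for IRF4 against 2208, 287 for the knockout, 1662 for the subsets and 1237 for R397W against Tconv cells. In IRF4, 3 of 4 pairs of numbers had their best partner in their own number. No block could be fitted for the R397W controls, whose columns carry other numbers. Few reads at the site in Tconv cells limit the size of the differences there, and 2 libraries a group limit the others.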
